A study of Arabidopsis thaliana with 6 samples.

Results

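Auxin is the plant hormone that drives cell expansion, organ patterning and bending towards light. In its main pathway, auxin brings short-lived Aux/IAA repressors to a receptor complex that marks them for destruction, which frees the auxin response factors to switch on target genes. Among those early targets are the Aux/IAA genes themselves and the GH3 enzymes, which join auxin to amino acids, so that both act as brakes on the response. Transcript levels of such genes are widely read as a sign of auxin activity in leaves. The 7 probe sets described here were chosen as members of this response, 6 by probe set identifier and HAT2 by its annotated name, and they are 7 of 22746 probe sets on the array. The platform annotation gave a gene for 3 of them: IAA29 (AT4G32280), GH3.3 (AT2G23170) and HAT2 (AT5G47370). The other 4 were selected as IAA1 (245593_at), IAA2 (257766_at), SHY2 (263664_at) and IAA19 (258399_at). The annotation used here names no gene for those 4, so their identity was not checked, the names of 245593_at and 263664_at in particular are in doubt, and all 4 are given by probe set identifier with no function.

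Samples came from leaves of Arabidopsis thaliana plants, all of ecotype Col0, on 3 arrays without a transgene (Col0) and 3 arrays from plants that express AmGSTF1, a glutathione transferase of a grass weed. Seeds were first held at 4 °C for 72 hours, all plants were raised at 20 °C under a 16-hour day, and each replicate was a set of 10 detached leaves kept for 4 hours on a solution of Tween 20 (0.1%) and acetone (0.1%), and no herbicide or auxin is named for any of them. The labels call the 3 replicates biological, and the auxin genes were compared between plants with and without the transgene. Plant age, the promoter of the transgene and the number of transgenic lines are not given in the sources used here, so an effect of AmGSTF1 and an effect of 1 line cannot be told apart.

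The values are MAS5 signals, linear intensities that combine the probes of a probe set. The arrays share 1 scale, with a trimmed mean signal of 496 on each, and arrays of 1 group correlated at 0.963 to 0.977 across probe sets. Differences are given as AmGSTF1 minus Col0 on the log2(signal + 16) scale, which understates changes of dim probe sets. A probe set was called where limma's Benjamini-Hochberg adjusted p, over the 13647 probe sets bright enough to be tested, was under 0.05. Of those, 292 were higher and 396 lower, or 222 and 599 with each array centred on its median. RCA, which encodes the Rubisco activase of green leaf cells, had signals of 15370 to 22829 on the 6 arrays. Of 18 listed markers of leaf and other cell types 5 had a named probe set and 0 were called, with 1 higher and 1 lower at an unadjusted p under 0.05. The former was the leaf gene LHCB4.2, with a difference of 0.48, and the latter the guard cell gene FMA, with a difference of -0.55. The other leaf gene, RCA, had a difference of -0.17, the root gene PYK10 0.63 and the vascular gene SWEET11 0.08. The part of these markers in the results was not tested.

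No member that could be tested differed past the threshold in either direction. Of the 7 members, 5 were bright enough, and with limma 0 were called higher and 0 lower, where 5.04% of all tested probe sets were called (2.14% higher and 2.9% lower). At an unadjusted p under 0.05 the count among these 5 was also 0, against 23.3% of all tested probe sets. The 5 differences lay between -0.42 and -0.08, so every tested member had the lower mean log2 level in AmGSTF1. Their median was -0.24, against 0.05 over all probe sets tested. With each array left out in turn, the difference ranged from -0.47 to 0.15 for 263664_at and from -0.74 to -0.04 for 258399_at. Both remaining members, 245593_at and IAA29, were too dim for the test and had the higher mean in AmGSTF1. With dim probe sets tested too, limma called 0 of 7 members, and 1 of them, IAA29, had an unadjusted p under 0.05, against 16.1% of all 22746 probe sets.

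**Figure D1:**
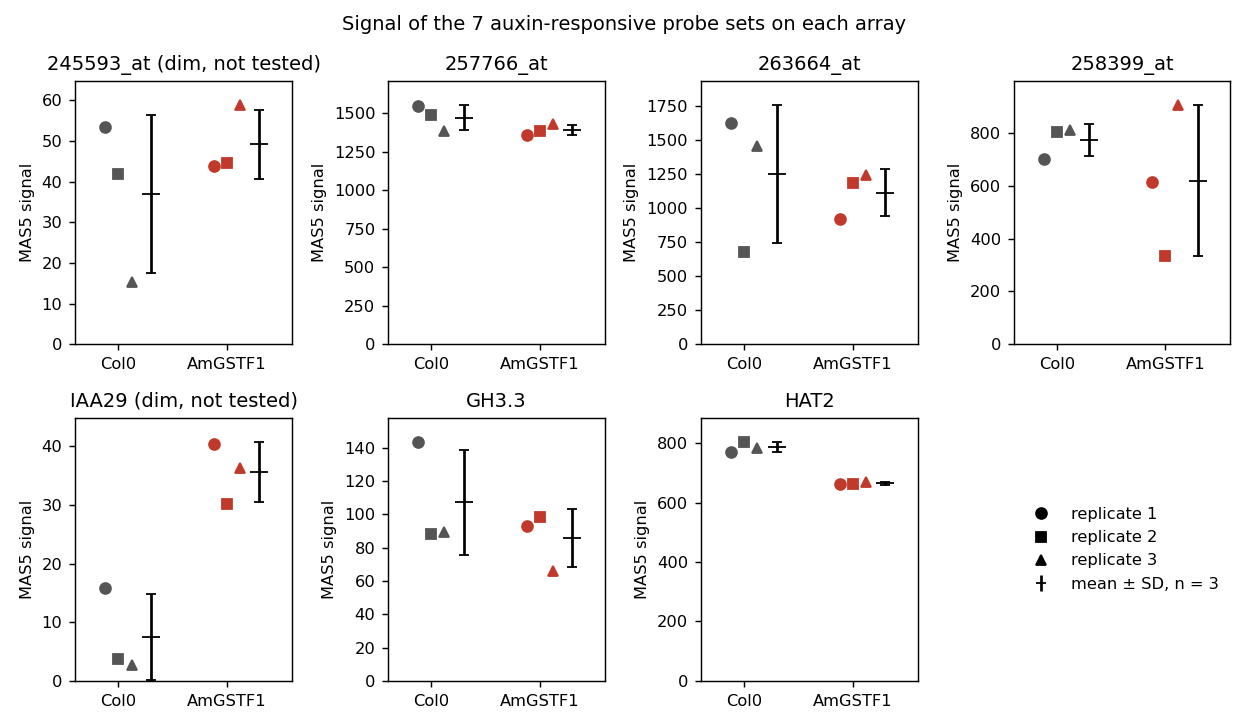
MAS5 signal (linear scale, from 0) of each of the 7 members on the 3 Col0 and 3 AmGSTF1 arrays, with a symbol for each replicate number and the mean ± SD (n = 3) beside each group. IAA29 and HAT2 are the members whose groups do not overlap, IAA29 with signals of at most 40.4 and HAT2 with signals of 661 to 805.

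HAT2 encodes a transcription factor of the HD-ZIP II class, whose transcript rises quickly after auxin and whose relatives act in shade avoidance. Its signal was 769, 805 and 785 on the Col0 arrays and 661, 663 and 670 on the AmGSTF1 arrays. All 3 AmGSTF1 arrays were therefore below all 3 Col0 arrays, and both groups were tight. In whole leaves, fewer cells of a type and less RNA per cell cannot be told apart. The mean signal went from 786 ± 17.9 to 665 ± 4.64 (SD, n = 3), a ratio of 0.849 on the log2(signal + 16) scale. The log2 difference was -0.24 (SE 0.13, 95% interval -0.52 to 0.05) and did not pass limma's test (adjusted p = 0.296). Groups without overlap were found for 27.6% of the probe sets tested, and HAT2 was the 1 such member among the 5. The spread between replicates of HAT2, a pooled SD of 0.024 on the log2 scale, was smaller than in all but 0.0513% of the 13647 probe sets tested, whose median was 0.22. The SE from limma is larger than that spread alone gives, because limma draws each probe set's variance towards that of probe sets of like brightness. No single array decided the HAT2 difference, which ranged from -0.25 to -0.22 when each array was left out in turn, with adjusted p of 0.348 to 0.493.

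GH3.3 encodes an acyl-amido synthetase that couples indole-3-acetic acid, the main natural auxin, to amino acids. Its signal was 144, 88.4 and 89.6 in Col0 and 92.9, 98.6 and 66.1 in AmGSTF1. The groups overlapped, and the highest value was that of Col0 replicate 1, with the other 5 arrays between 66.1 and 98.6. The log2 difference was -0.26 (SE 0.27, 95% interval -0.86 to 0.34, limma adjusted p = 0.604), and without Col0 replicate 1 it was -0.06. This interval leaves room for levels between 0.552 and 1.26 times those of Col0. The GH3.3 signals lay close to the brightness limit of the test, since the 40% point of all signals (the signal that 40% of probe sets fall under) was between 68.7 and 84.5 depending on the array.

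IAA29 encodes an Aux/IAA protein whose transcript is known to rise with auxin and with shade. Its signal was 15.9, 3.73 and 2.68 in Col0 and 40.4, 30.2 and 36.4 in AmGSTF1. Every AmGSTF1 array was above every Col0 array, yet all 6 values lay below the 40% point of their array, and no detection calls were used. The log2 difference was 1.18, the only member difference above 1 in size, and no ratio of levels is given for signals this low. Its size followed the pseudocount, from 2.45 with a pseudocount of 1 to 0.48 with a pseudocount of 64. When dim probe sets were tested too, IAA29 had a limma adjusted p of 0.124 (unadjusted p = 0.00639, 95% interval 0.42 to 1.93). Leaving out each array in turn gave 1.04 to 1.42, the upper value without Col0 replicate 1, which was the highest of its group. Among the 9099 probe sets below the brightness limit, 10.7% had groups that do not overlap and 5.64% had all AmGSTF1 arrays higher.

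The probe set 257766_at was bright and steady across arrays. Its signal was 1547, 1489 and 1386 in Col0 and 1362, 1386 and 1431 in AmGSTF1. The groups overlapped within a narrow range, and the log2 difference was -0.08 (SE 0.13, 95% interval -0.36 to 0.20, limma adjusted p = 0.749). The interval excludes levels below 0.779 or above 1.15 times those of Col0. Its pooled SD was 0.062, smaller than in 98.4% of the probe sets tested.

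In 263664_at 1 Col0 array stood apart. The signal was 1623, 674 and 1453 in Col0 and 918, 1180 and 1242 in AmGSTF1. Col0 replicate 2 was thus the lowest of all 6 arrays, whereas the other Col0 arrays were the 2 highest. The log2 difference was -0.08 (SE 0.29, 95% interval -0.74 to 0.58, limma adjusted p = 0.903). Its direction rested on single arrays. Leaving out Col0 replicate 2 made it -0.47 (adjusted p = 0.123), but the sign turned when Col0 replicate 1 (0.15), Col0 replicate 3 (0.08) or AmGSTF1 replicate 1 (0.05) was omitted.

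For 258399_at the spread lay in the other group. Its signal was 702, 802 and 812 in Col0 and 615, 334 and 906 in AmGSTF1. The AmGSTF1 arrays held both the lowest and the highest value of the 6. The log2 difference was -0.42 (SE 0.29, 95% interval -1.08 to 0.24, limma adjusted p = 0.434), the largest in size among the tested members. Without AmGSTF1 replicate 2, the lowest array, it was -0.04, and without AmGSTF1 replicate 3, the highest, it was -0.74 (adjusted p = 0.158).

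The last member, 245593_at, was dim on every array. Its signal was 53.3, 41.9 and 15.4 in Col0 and 43.9, 44.6 and 58.9 in AmGSTF1. The groups overlapped, with Col0 replicate 3 well below the rest. The log2 difference of 0.37 had no test among the brighter probe sets, and its adjusted p was 0.699 when dim probe sets were tested too. It was 0.03 without Col0 replicate 3.

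**Figure D2:**
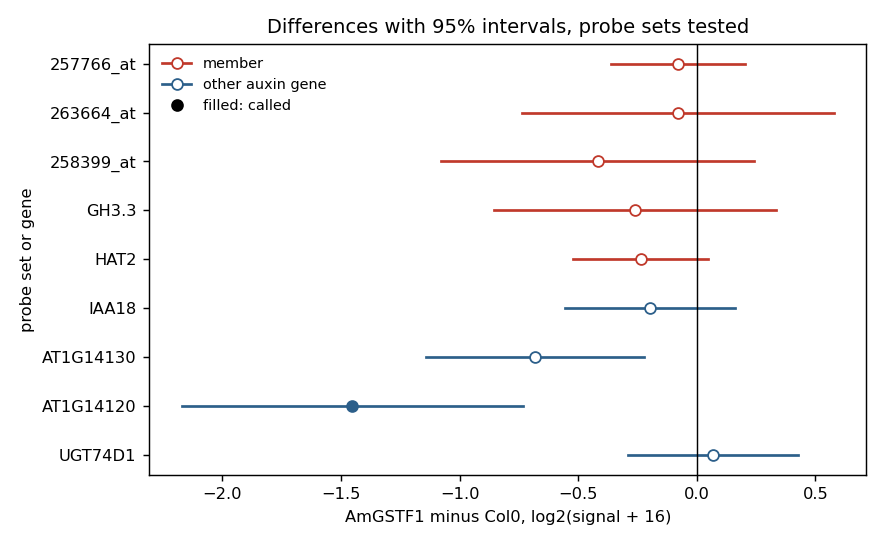
AmGSTF1 minus Col0 on the log2(signal + 16) scale with limma's 95% intervals, for the 5 members tested and the 4 other auxin genes tested. Every member interval includes 0, and AT1G14120, at -1.45, is the 1 called gene.

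Across arrays, the members differed in where they were high. The highest signal of a member fell on Col0 replicate 1 for 3 members, on AmGSTF1 replicate 3 for 2, and on Col0 replicate 2 and AmGSTF1 replicate 1 for 1 each. AmGSTF1 replicate 2, which had the lowest value of 258399_at, was in the middle of its group for 245593_at, 257766_at, 263664_at and HAT2. Their spreads differed widely, since the pooled SD was 0.51 for 263664_at and 0.50 for 258399_at, larger than in 94.6% and 94.4% of the probe sets tested. Among 7323 other probe sets with 1 gene, those closest to the mean standardized profile of the 5 tested members were AT5G24760 (Pearson r = 0.996), AT3G24150 (0.992), AT1G09660 (0.990), AT3G42660 (0.981) and AT5G63490 (0.980). These values describe the same 6 arrays, 3 in each group, and none of the 5 genes was called (limma adjusted p 0.164 to 0.229). The members themselves correlated with the mean profile, which each of them is part of, at 0.456 for 263664_at to 0.819 for 257766_at. Over all 7 members, the pair with the largest Pearson r in size was IAA29 and HAT2 (-0.95), the members whose groups were apart, in opposite directions. The next were 245593_at with IAA29 (0.661) and 257766_at with HAT2 (0.594), described over the same 6 arrays. With group means taken out, a different set led, starting with AT5G66950 (0.991) and AT4G13630 (0.987), and HAT2 correlated with the mean profile at -0.263.

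The rest of the auxin pathway was read from 139 other genes in 11 lists, of which 20 had a probe set with a gene name in the annotation and 4 were bright enough to be tested. With limma 0 of these 4 were called higher and 1 was called lower. At an unadjusted p under 0.05, 2 were lower, the neighbouring loci AT1G14120 and AT1G14130, against 1463 of all 13647 probe sets tested. The median difference of the 4 was -0.44, against 0.05 over all probe sets tested, where calls of lower genes made up 2.9%.

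Of 24 further Aux/IAA repressors 6 had a named probe set and 1 was tested. As the identity of 4 members was not checked, genes of this list, and so of the 139, may be among those members. The IAA18 signal was 747, 638 and 578 on the Col0 arrays and 560, 645 and 498 on the AmGSTF1 arrays, with a log2 difference of -0.20 (95% interval -0.56 to 0.16, limma adjusted p = 0.497). Its groups overlapped, as did those of the dim IAA20, IAA30, IAA31, IAA33 and IAA34, which reached at most 79.6 on any array. Of the 6 dim genes annotated as Aux/IAA, IAA29 was thus the 1 whose groups were apart. Among the GH3 enzymes other than GH3.3, GH3.1, GH3.5, GH3.9 and GH3.17 were all too dim to be tested. GH3.9 was higher on all AmGSTF1 arrays (29.6 to 33.5) than on the Col0 arrays (1.7 to 25.7), and GH3.1 was lower on all of them (1.5 to 2.01 against 2.28 to 18.7). Of all probe sets below the brightness limit, 10.7% had groups that do not overlap. The groups of GH3.5 and GH3.17 overlapped. GH3.5 had a signal of 219 on AmGSTF1 replicate 3, with the other arrays between 47.4 and 63.8.

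Removal of auxin held the 1 gene that passed. AT1G14120 and AT1G14130 are neighbouring loci, entered in the list as DAO2 and DAO1, the dioxygenases of auxin oxidation, which with the conjugation carried out by GH3 enzymes removes active auxin. The gene table gives neither locus a symbol. The AT1G14120 signal was 1098, 951 and 1231 on the Col0 arrays and 238, 707 and 341 on the AmGSTF1 arrays. All AmGSTF1 arrays were below all Col0 arrays, and AT1G14120 fell by 1.45 on the log2 scale (SE 0.32, limma adjusted p = 0.0351). The AT1G14130 signal was 407, 522 and 391.9 on the Col0 arrays and 221, 355 and 239 on the AmGSTF1 arrays, also without overlap. Groups without overlap were found for 27.6% of all probe sets tested. The AT1G14130 difference of -0.68 (SE 0.21) missed the threshold in limma (adjusted p = 0.0836). For both loci AmGSTF1 replicate 2 was the array nearest to Col0, and without it AT1G14130 passed too (-0.88, adjusted p = 0.0257). The difference of AT1G14120 was lower in AmGSTF1 in every fit that omitted 1 array, from -1.87 to -1.12. It stayed called when Col0 replicate 2 (-1.55, adjusted p = 0.0395) or AmGSTF1 replicate 2 (-1.87, 0.00578) was omitted. It was not called with AmGSTF1 replicate 1 (-1.12, 0.123) or Col0 replicate 1 (-1.44, 0.125) omitted, nor without Col0 replicate 3 (-1.36, 0.125) and AmGSTF1 replicate 3 (-1.36, 0.102) in turn, at unadjusted p of 0.00386 to 0.00644. In the first 3 of these 4 fits, 6 to 8 probe sets of all those tested were called higher and 5 to 10 lower. With the same difference of -1.45, the adjusted p was 0.0645 with dim probe sets included and 0.0585 with no intensity trend, whereas the call held with array weights (-1.65, 0.00793), quantile normalization (-1.51, 0.0371) and median centring (-1.54, 0.0294). Whether the probes tell these related neighbours apart was not tested. UGT74D1, a glucosyltransferase that acts on auxin, had a log2 difference of 0.07 (95% interval -0.29 to 0.42, limma adjusted p = 0.844).

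The remaining named genes of the lists were dim and had no test. They were YUC2, YUC4 and YUC6 of auxin synthesis, UGT84B1 of auxin glucosylation, the kinase gene WAG2 of auxin transport, and LBD16 and LBD29, targets of the pathway in lateral roots. Their highest signal was 108, for YUC2 on AmGSTF1 replicate 1. WAG2 was the 1 among them whose groups did not overlap (18.9 to 25.1 in Col0 and 2.43 to 13.6 in AmGSTF1). Of all 9099 probe sets below the brightness limit, 10.7% had groups that do not overlap. The WAG2 difference ran from -1.45 with a pseudocount of 1 to -0.24 with a pseudocount of 64. For the response factors, the receptors and co-repressors, the SAUR genes, the other HD-ZIP II genes and the shade factors, no probe set was named here, so they were not analysed.

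**Figure D3:**
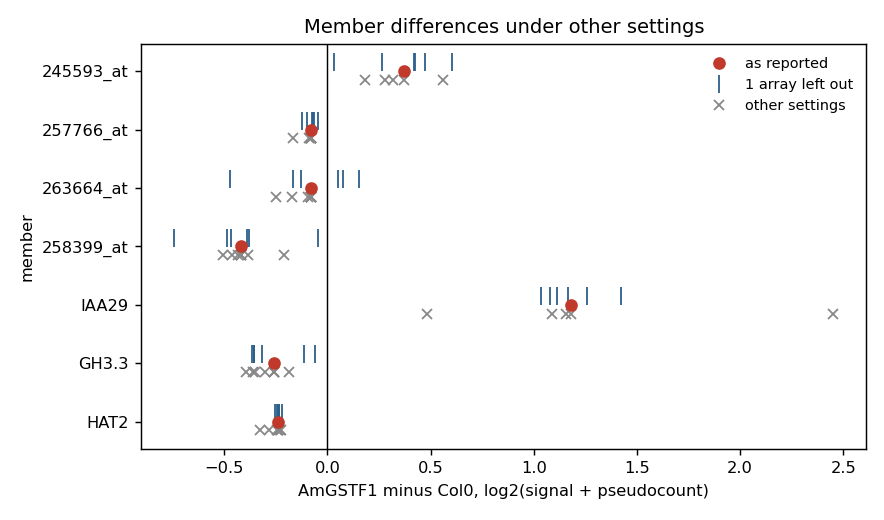
AmGSTF1 minus Col0 of each member, on the log2(signal + pseudocount) scale, as reported (circles), with 1 array left out (bars) and under the other settings (crosses). HAT2 stays between -0.33 and -0.22, 263664_at lies on both sides of 0, and IAA29 runs from 0.48 to 2.45 with the pseudocount.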

How the data were processed

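The authors deposited MAS5 signal intensities on a linear scale, 1 value per probe set and array, and per the submitters' processing notes used Affymetrix Expression Console (1.1). Detection calls were not used here. Samples were grouped by the transgene their labels name. No further normalization was applied. Signals were taken as log2(signal + 16), and the 40% of probe sets with the lowest mean over the 6 arrays were left out, 2 members among them. AmGSTF1 was compared with Col0 in R 4.3.3 by limma 3.58.1 (two-sided, lmFit followed by eBayes with its intensity trend), adjusted over 13647 probe sets. The fit, but not the brightness filter, was also run on simulated data. The changes planted there were larger than any difference of the tested members. With 3 arrays in each group an exact permutation test has a smallest p of 0.1, so none was run. The number of arrays limits the precision.

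Gene names came from the platform annotation (1 gene for 13513, several for 503, none here for 8730) and the RefSeq gene table of TAIR10.1, used for names and neighbouring genes. Each gene was taken by its brightest probe set. The members and the gene lists were chosen with earlier results of these data known. Named genes are all members, the called genes of each list and otherwise those with the smallest p, and the 5 genes most like the members over 6 arrays. Dim list genes are named outside that rule, after their values were seen. Alternatives were pseudocounts of 1 and 64, no filter, quantile normalization, median centring, no trend, a replicate block, array weights, and omission of each array in turn. Figures were drawn with Python 3.11.15.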

Additional observations from a re-analysis of the deposited data

How the results depend on the processing

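Members called numbered 0 higher and 0 lower under every alternative run, and the other auxin genes called higher also numbered 0. Other auxin genes called lower (1) numbered 0 with no filter, without the intensity trend and with the replicate block, 2 with array weights, and 0 to 2 with 1 array left out. Of all probe sets, 292 were called higher and 396 lower, against 123 and 213 with no filter, 192 and 237 without the trend, 814 and 827 with array weights, and 40 and 38 with the replicate block. Median centring gave 222 and 599, and with 1 array omitted the counts were 6 to 603 (higher) and 5 to 566 (lower). The cause was not tested. Same-numbered arrays deviated together at r = 0.146, -0.027 and -0.050 across probe sets, so the numbers were not taken as pairs, and the adjusted p of AT1G14120 was 0.0677 with the block. With 3 arrays a group, the intervals of 263664_at, 258399_at and GH3.3 each span over 1 on the log2 scale. Each includes 0, so the differences of these members could not be told from 0. IAA29 and 245593_at, which the filter leaves out, were tested only in the fit with no filter.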
